A study of Canis lupus familiaris with 29 samples.

Results

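The 8 genes described here encode proteins of the apical membrane, the face that an epithelial cell turns towards the lumen. They are PDZK1, TMEM27, MUC1, PODXL, EZR, CD24, PROM1 and SLC9A3R1, and they were chosen by name out of 24223 genes measured. Each name had 1 row in the expression tables, and all 8 passed the filter on low values that left 11774 genes for testing. TMEM27, CD24 and PROM1 passed it only through the groups in which they were high. Since the choice was made with the change of some of them in wild-type culture known, their differences from the starting cells are given as a description without a test.

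The samples are MDCKII, an epithelial line from dog kidney, and RNA sequencing of them gave 29 libraries in 13 groups. Wild-type cells were sampled at seeding (day 0, n = 4), as cysts on matrigel at 24 h and at days 3, 5 and 8 (n = 2 each) and day 14 (n = 1), and as monolayers on transwell inserts at days 4 and 11 (n = 3 each). Knockdown (KD) cells, depleted of DENND5A or AVL9, proteins of the DENN domain family, were sampled at day 0 and on inserts at day 4 (n = 2 each), and DENND5A-KD cells also on inserts at day 7 (n = 2). Matrigel culture is called 3D and insert culture 2D, and all groups were grown in the same medium. The knockdown samples carry the numbers 1 and 2 (DENND5A) and 1 and 4 (AVL9), called lines here because no label tells clones from hairpins or guides. A mock-treated control line, knockdown cysts and wild-type cells at 2D day 7 were not analysed here. Nothing in the labels says that replicates came from separate cultures, and p-values therefore measure only the spread between these libraries, which may be technical.

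An epithelial cyst forms when cells place a shared apical surface between them and open a lumen there. Beneath that surface, ezrin ties membrane proteins to the actin core of microvilli, and PDZ-domain scaffolds hold transporters and channels in place. Heavily glycosylated proteins such as podocalyxin and mucins coat the lumenal face, and podocalyxin is a classical marker of the nascent lumen in MDCK cells. Part of the set, PDZK1 and collectrin (TMEM27), is best known from the brush border of the kidney proximal tubule.

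Values are FPKM (fragments normalized to transcript length and to library size), so levels of different genes may be compared per length. Differences are in log2(FPKM + 1) with their standard error (SE) unless stated otherwise, and on that scale the change of a gene with low FPKM is understated. A gene was called higher or lower at an adjusted p under 0.05 in limma. Total FPKM ran from 276017 to 441332 per library, and depth relative to one day 0 library ran from 0.454 to 1.67. Apart from the rest stood 5 wild-type libraries, namely the only day 14 library and the first replicates of 4 groups (day 0, cysts of days 3 and 8, and monolayers of day 4). In these 5, TIMM13, a mitochondrial import chaperone, was listed at 0 against 30.9 to 397 FPKM elsewhere, and relative depth was 0.454 to 0.727 against 0.847 to 1.10 in the other 14 wild-type libraries. Knockdown libraries were uneven too: AVL9-KD lines 1 and 4 had relative depths of 0.712 and 1.67 at day 0 and of 1.64 and 0.543 at 2D day 4. DENND5A and AVL9 were lower in every library of their own knockdown than in every wild-type library of the same day: DENND5A read 3.36 and 4.29 FPKM in its 2 lines at 2D day 4 against 10.2 to 10.9 in wild type, and AVL9 read 6.35 and 3.89 against 17.9 to 25.1. Kidney epithelial markers with a row (CDH1, EPCAM, PAX8 and CDH16) summed to 394 to 787 FPKM per library. CDH16 by itself ran from 0.034 to 68.6 FPKM, with a median of 9.53, so it was near 0 at its lowest. None of 5 fibroblast, 4 endothelial or 5 leukocyte markers reached 1 FPKM in any library, and their sums stayed at or below 0.490, 0.308 and 0.672.

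In wild-type cells the 8 genes fell into a group that was high throughout and a group that started low. EZR, SLC9A3R1, MUC1 and PODXL were above 28 FPKM in every library, and over the 8 wild-type groups their highest mean exceeded the lowest by 1.70-fold, 1.61-fold, 1.74-fold and 3.46-fold. TMEM27, CD24 and PROM1 were at or below 0.088 FPKM and PDZK1 at or below 4.89 FPKM at seeding, and all 4 were higher in every 3D library from day 3 and every 2D library than in any day 0 library. Bulk RNA does not separate more cells with a transcript from more transcript per cell, and this holds for all values below.

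**Figure D1:**
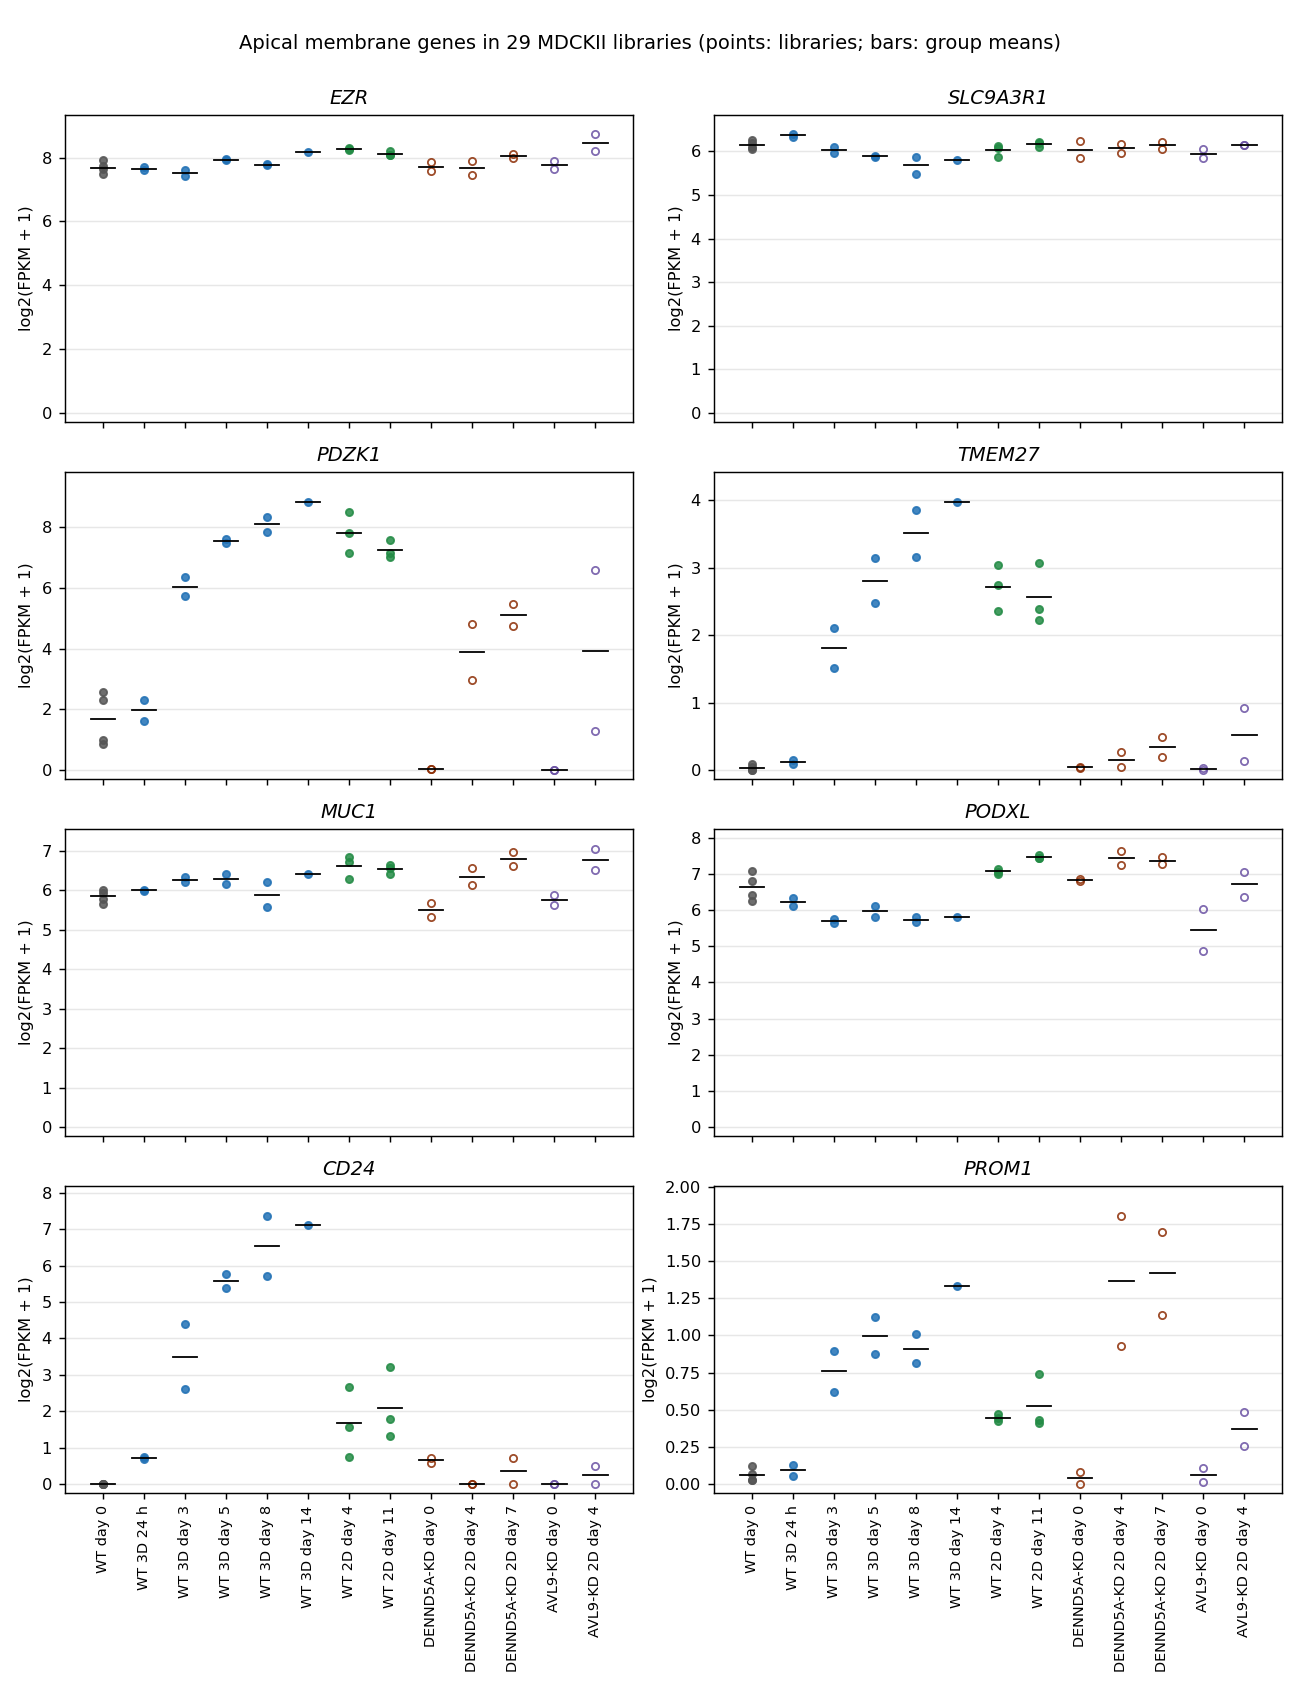
Expression of the 8 genes in all 29 libraries, as log2(FPKM + 1) on the vertical axis, with the 13 groups along the horizontal axis; each point is a library, bars are group means, and open points are knockdown libraries. PDZK1, TMEM27, CD24 and PROM1 are low at wild-type day 0, while EZR, SLC9A3R1, MUC1 and PODXL are high throughout.

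Among the scaffolds, ezrin (EZR, ENSCAFG00000000661), the linker between membrane and actin, had the highest level of the set at seeding. Its 4 day 0 libraries read 240, 198, 210 and 177 FPKM. Cysts read 196 and 206 at 24 h, 171 and 193 at day 3, 242 and 247 at day 5, 221 and 217 at day 8, and 287 at day 14. Monolayers read 316, 309 and 302 at day 4 and 272, 267 and 295 at day 11. All 6 monolayer libraries lay above all day 0 libraries and above every cyst library up to day 8, while cysts at days 3 and 8 overlapped day 0. Over all 13 groups the AVL9-KD monolayers had the highest mean (360) and day 3 cysts the lowest (182).

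SLC9A3R1 (NHERF1, ENSCAFG00000004599), the PDZ scaffold that binds ezrin and tethers transporters and podocalyxin, varied least. It ran from 43.5 to 83.5 FPKM over all 29 libraries. The 24 h cysts were highest at 83.5 and 79.3, and the day 8 cysts lowest at 57.7 and 43.5. Against day 0 the difference was 0.22 ± 0.12 at 24 h and −0.47 ± 0.12 at day 8.

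PDZK1 (ENSCAFG00000011153), a scaffold with several PDZ domains that gathers transporters at the brush border, changed the most of the scaffolds. Day 0 libraries read 0.811, 3.98, 0.997 and 4.89 FPKM, and 24 h cysts 3.92 and 2.09, which overlapped them. Cysts then read 80.4 and 51.9 at day 3, 195 and 177 at day 5, 323 and 230 at day 8, and 453 at day 14. The 3D means were thus 24.8-fold above day 0 at day 3 and 103-fold at day 8 (6.41 ± 0.87). Monolayers read 359, 140 and 222 at day 4 and 129, 142 and 189 at day 11, which were 90.1-fold and 57.5-fold above day 0 on average. In the order of group means the single day 14 library led, above both day 8 cyst libraries. Day 8 cysts, day 4 monolayers, day 5 cysts and day 11 monolayers followed, and their ranges overlapped from each to the next. The libraries that stood apart read 1.55, 1.40 and 1.98 times the other libraries of their group at 3D day 3, 3D day 8 and 2D day 4. At day 0 the library that stood apart read 0.247 times the mean of the others, and the day 14 library stood apart as well. The part of these libraries in the PDZK1 levels and folds was not tested.

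While PDZK1 increased, NHERF1 in cysts of days 5, 8 and 14 lay below every day 0 library. The ratio of PDZK1 to SLC9A3R1 FPKM was 0.0125 to 0.0728 in the day 0 libraries and 0.841 to 1.18 at 3D day 3. It reached 3.02 to 3.38 at day 5, 5.28 to 5.60 at day 8 and 8.24 in the day 14 library. Monolayers had ratios of 2.06 to 5.38 at day 4 and 1.77 to 2.80 at day 11. Thus PDZK1 transcript per length was the smaller of the pair in every library up to 24 h and the larger in every wild-type library from day 5 in 3D and day 4 in 2D.

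TMEM27 (collectrin, ENSCAFG00000012134), a partner of apical amino acid transporters, followed PDZK1 at a lower level. It read 0, 0.033, 0 and 0.061 FPKM at day 0 and 0.110 and 0.065 at 24 h. Cysts reached 3.32 and 1.85 at day 3, 7.86 and 4.55 at day 5, 13.4 and 7.97 at day 8, and 14.7 at day 14. Monolayers read 7.19, 4.13 and 5.72 at day 4 and 3.69, 4.24 and 7.39 at day 11. Day 8 cysts lay above all monolayers, by 1.88-fold and 2.09-fold over the day 4 and day 11 means, whereas day 5 cysts overlapped both. The libraries that stood apart again read high, at 1.79, 1.68 and 1.46 times their neighbours at 3D day 3, 3D day 8 and 2D day 4.

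The lumenal glycoproteins did not move as one. MUC1 (ENSCAFG00000017037), a membrane-bound mucin, read 63.2, 60.4, 53.7 and 49.8 FPKM at day 0. It read 63.7 and 62.2 at 24 h, 80.1 and 72.8 at 3D day 3, 70.0 and 84.8 at day 5, 72.6 and 46.7 at day 8, and 84.8 at day 14. Day 8 overlapped the starting cells, with a difference of 0.04 ± 0.20. Monolayers were all above day 0, at 114, 104 and 77.7 on day 4 (0.78 ± 0.17) and 94.3, 99.8 and 84.8 on day 11 (0.71 ± 0.17).

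Podocalyxin (PODXL, ENSCAFG00000001403), a sialomucin that marks the young lumen, took opposite courses in the culture forms. Day 0 libraries read 74.8, 110, 84.4 and 133 FPKM. Cysts read 80.3 and 68.4 at 24 h, 49.4 and 52.6 at day 3, 55.3 and 68.1 at day 5, 55.1 and 49.7 at day 8, and 55.4 at day 14. From day 3 on, every cyst library lay below every day 0 library. Monolayers read 128, 131 and 141 at day 4, overlapping day 0, and 173, 185 and 171 at day 11, all above it. The difference from day 0 was −0.89 ± 0.25 at 3D day 8 and 0.84 ± 0.22 at 2D day 11.

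CD24 (ENSCAFG00000007239), a small lipid-anchored surface glycoprotein, reached high levels in cysts and not in monolayers. All 4 day 0 libraries were listed at 0, so no fold is given against them. Cysts read 0.689 and 0.628 FPKM at 24 h, 19.9 and 5.11 at day 3, 53.0 and 40.4 at day 5, 163 and 51.8 at day 8, and 138 at day 14. Monolayers read 1.98, 0.687 and 5.36 at day 4 and 1.49, 2.43 and 8.29 at day 11. Its day 8 cyst mean was 40.1-fold above the 2D day 4 mean and 26.3-fold above that of day 11. Only the lower day 3 cyst library overlapped the monolayers among cysts from day 3 on. The libraries that stood apart were the high ones at 3D day 3 (3.90 times the other) and day 8 (3.14 times), but not at 2D day 4 (0.656 times the mean of the others). In human cells CD24 has near-identical processed copies elsewhere in the genome, and how reads shared with such copies were counted here was not given in the sources used.

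PROM1 (prominin 1, ENSCAFG00000015233), a protein of microvilli and other membrane protrusions, was the lowest of the set in day 8 cysts and in wild-type monolayers. Day 0 libraries read 0.088, 0.019, 0.048 and 0.018 FPKM, and 24 h cysts 0.093 and 0.041. Cysts read 0.864 and 0.535 at day 3, 0.830 and 1.18 at day 5, 1.01 and 0.761 at day 8, and 1.51 at day 14. Monolayers read 0.340, 0.359 and 0.387 at day 4 and 0.347, 0.330 and 0.674 at day 11. Every cyst library from day 3 lay above day 0, and so did every monolayer library, but none outside day 14 exceeded 1.18 FPKM.

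Cysts and monolayers were then compared with each other, which needs no day 0 library. The change of some of the 8 genes in wild-type culture was known when the set was chosen. The p-values of this comparison are therefore not independent of that choice. Against the 6 monolayer libraries of days 4 and 11, cysts of days 3, 5 and 8 held more CD24 and PROM1 and less PODXL, EZR, MUC1 and SLC9A3R1. The largest shift was that of CD24, at 55.5 against 3.37 FPKM on average, followed by PODXL at 55.0 against 155 FPKM. The transporter scaffold PDZK1 and collectrin, which are far above their day 0 level in both forms, were not called. Their cyst means span 66.2 FPKM at day 3 to 276 at day 8 for PDZK1, and 2.59 to 10.7 for collectrin. The days differ between the forms, so culture form and time in culture cannot be told apart in this comparison. Of the 8 genes, 6 passed the test, 2 higher and 4 lower, where 56.9% of all genes tested were called, so a call was common in this comparison.

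CD24 differed by 3.32 ± 0.35 (SE; limma, Benjamini-Hochberg adjusted p = 2.42e-07) and PROM1 by 0.40 ± 0.13 (adjusted p = 0.0111). PROM1 reached 1 FPKM in some cysts and in no wild-type monolayer, so it passed the filter partly through the group found higher. PODXL was lower by −1.47 ± 0.17 (adjusted p = 5.52e-07) and EZR by −0.46 ± 0.10 (adjusted p = 0.000611), and for both every cyst library lay below every monolayer library. MUC1 was lower by −0.44 ± 0.13 (adjusted p = 0.00763) with overlapping libraries. SLC9A3R1 was lower by −0.23 ± 0.08 (adjusted p = 0.0213), also with overlap. PDZK1 differed by −0.31 (95% confidence interval −1.52 to 0.90, adjusted p = 0.673) and TMEM27 by 0.07 (−0.29 to 0.44, adjusted p = 0.748), which leaves room for a difference in either direction.

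The calls of CD24, PODXL, EZR and MUC1 held under all 20 alternatives tried for each. Without the 5 libraries that stood apart, 5 of the 8 genes were called and PROM1 was not (0.32, adjusted p = 0.108; 0.00293 to 0.108 over its alternatives). SLC9A3R1 lost its call with median-ratio scaling (−0.12, adjusted p = 0.0711; 0.00116 to 0.096 over its alternatives) and without 3D day 3 replicate 2, 3D day 8 replicate 2 or 2D day 4 replicate 2 (adjusted p = 0.0592, 0.096 and 0.0527).

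**Figure D2:**
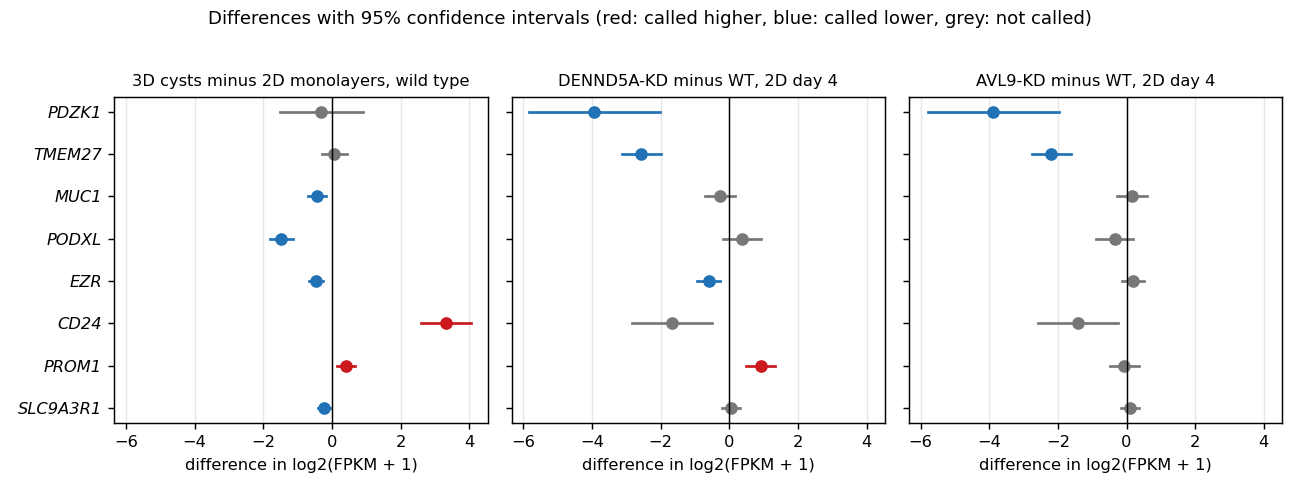
Differences in log2(FPKM + 1) on the horizontal axis for the 8 genes, with 95% confidence intervals from limma, for wild-type cysts against monolayers and for each knockdown against wild type at 2D day 4. CD24 is highest in the first panel at 3.32, and PDZK1 and TMEM27 are lowest in both knockdown panels.

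Longer insert culture brought no call among the 8 genes. None passed at 2D day 11 against day 4 in limma, and none had an unadjusted p under 0.05, where 2.08% of all genes tested were called (245 genes, and 0 without day 11 replicate 1 or 2 and 1 without day 4 replicate 3). PODXL (171 to 185 against 128 to 141 FPKM) was higher and EZR (267 to 295 against 302 to 316 FPKM) lower without overlap, with differences of 0.40 ± 0.24 (adjusted p = 0.436) and −0.15 ± 0.14 (adjusted p = 0.652).

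At seeding, the knockdown cells were compared with wild type to ask what the lines lacked before culture on inserts. PDZK1 was near or at 0 in all 4 knockdown libraries, below every wild-type library: 0.034 and 0.028 FPKM in DENND5A-KD lines 1 and 2, and 0 in both AVL9-KD lines, against 0.811 to 4.89 in wild type. On the log2(FPKM + 1) scale these differences were −1.64 ± 0.87 (adjusted p = 0.413) and −1.68 ± 0.87 (adjusted p = 0.188) and were not called. With a pseudocount of 0.1 in place of 1, both passed, at −4.02 (adjusted p = 0.0185) and −4.41 (adjusted p = 0.00508), while adjusted p reached 0.741 and 0.413 over their other alternatives.

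PODXL was the single gene of the set called at seeding, in AVL9-KD cells. Lines 1 and 4 read 28.2 and 64.3 FPKM against 74.8 to 133 in wild type, a difference of −1.18 ± 0.25 (adjusted p = 0.00301), and 18% of all genes tested were called in that comparison (2118 genes, and 745 without line 1). DENND5A-KD cells read 110 and 115, within the wild-type range. The AVL9-KD call was lost without line 1 (−0.60, adjusted p = 0.164) and when these 2 groups were fitted alone (adjusted p = 0.127; 0.000125 to 0.164 over its alternatives). In DENND5A-KD cells at day 0, 0 of the 8 genes passed in limma, 0 had an unadjusted p under 0.05, and 5.52% of all genes tested were called (650 genes, and 207 without line 2). CD24 was listed at 0.636 and 0.506 FPKM in DENND5A-KD cells at day 0 and at 0 in all wild-type and AVL9-KD libraries of that day, a difference of 0.65 ± 0.53 (adjusted p = 0.681) that passed when these groups were fitted alone (adjusted p = 0.00501; 0.00501 to 0.907 over its alternatives).

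On inserts at day 4, PDZK1 and collectrin were below wild type in every knockdown library, by amounts that differed between lines. PDZK1 read 6.79 and 26.9 FPKM in DENND5A-KD lines 1 and 2 and 1.46 and 94.3 in AVL9-KD lines 1 and 4, against 140 to 359 in wild type. TMEM27 read 0.036 and 0.200 in the DENND5A-KD lines and 0.099 and 0.889 in the AVL9-KD lines, against 4.13 to 7.19. In all 4 knockdown libraries both genes were below all 3 wild-type libraries. EZR was also lower and PROM1 higher in DENND5A-KD cells.

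For DENND5A-KD, 4 of the 8 genes passed, 3 lower and 1 higher, where 11.3% of all genes tested were called (1334 genes, and 416 without line 1). PDZK1 was lower by −3.93 ± 0.91 (adjusted p = 0.00721): the wild-type mean exceeded line 1 by 35.5-fold and line 2 by 8.95-fold. TMEM27 was lower by −2.56 ± 0.28 (adjusted p = 6.04e-06), with the wild-type mean 160-fold and 28.4-fold above the lines. Only wild-type libraries in culture took TMEM27 past the filter, and its rise there was known when it was chosen. The rise of PDZK1 in wild-type culture was known as well. The p-values of both genes are therefore not independent of that choice. EZR read 176 and 235 FPKM against 302 to 316, a difference of −0.60 ± 0.16 (adjusted p = 0.0153). PROM1 read 0.900 and 2.49 FPKM against 0.340 to 0.387, a difference of 0.92 ± 0.20 (adjusted p = 0.00496), and line 2 held the highest PROM1 level of all 29 libraries. PROM1 reached 1 FPKM in 6 libraries, all of them wild-type cysts or DENND5A-KD monolayers. It thus passed the filter partly through the group found higher here, which limits what its p-value shows.

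TMEM27 kept its call under all 13 alternatives, but no alternative makes its p-value independent of the choice of the gene. When the 2 groups were fitted alone, 1 of the 8 genes passed, and the adjusted p of PDZK1 was 0.0673 (0.00531 to 0.19 over its alternatives), of EZR 0.182 (0.00845 to 0.353) and of PROM1 0.167 (0.000591 to 0.167). Without line 1, PDZK1 (−3.01, adjusted p = 0.19) and EZR (−0.39, adjusted p = 0.353) were not called, without line 2 PROM1 was not (0.48, adjusted p = 0.153), and without the 5 libraries that stood apart EZR was not (−0.58, adjusted p = 0.0509).

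For AVL9-KD, 2 of the 8 genes passed, both lower, where 21% of all genes tested were called (2474 genes, and 1184 without line 1). PDZK1 was lower by −3.88 ± 0.91 (adjusted p = 0.00572), but its lines differed 64.8-fold, so that the wild-type mean was 165-fold above line 1 and 2.55-fold above line 4. The library of line 1 was the deeper (1.64 against 0.543 in relative depth), and the part of depth was not tested. TMEM27 was lower by −2.19 ± 0.28 (adjusted p = 2.79e-05), with the wild-type mean 57.2-fold and 6.39-fold above lines 1 and 4. As for DENND5A-KD, the p-values of PDZK1 and TMEM27 are not independent of the choice of the genes. EZR read 293 and 428 FPKM and PROM1 0.197 and 0.402, both overlapping wild type. Without line 1 the PDZK1 difference shrank to −1.24 (adjusted p = 0.228), and with these groups fitted alone neither gene passed (adjusted p = 0.224 for PDZK1 and 0.0752 for TMEM27; 3.19e-06 to 0.228 and 1.91e-05 to 0.0752 over their alternatives). The median of all genes lay at 0.19 in this comparison and at 0.00 after quantile normalization, and the PDZK1 and TMEM27 calls held under both scalings tried.

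CD24 was listed at 0 in both DENND5A-KD lines and at 0.418 and 0 FPKM in AVL9-KD lines 1 and 4 at 2D day 4, below the wild-type values of 1.98, 0.687 and 5.36. The differences of −1.67 ± 0.55 (adjusted p = 0.0585) and −1.41 ± 0.55 (adjusted p = 0.0741) were not called. Both passed with a pseudocount of 0.1 (adjusted p = 0.00235 and 0.0144) and without wild-type replicate 2 (adjusted p = 0.0211 and 0.0258), and their largest values over the alternatives were 0.283 and 0.313. MUC1 (68.8 and 93.8 FPKM in DENND5A-KD, 131 and 90.6 in AVL9-KD, 77.7 to 114 in wild type) and SLC9A3R1 were not called in either knockdown. PODXL read 151 and 198 FPKM in DENND5A-KD, above all of wild type at 128 to 141, and 81.8 and 133 in AVL9-KD, and neither difference was called (adjusted p = 0.428 and 0.356). The comparisons of both knockdowns use the same 3 wild-type libraries.

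**Figure D3:**
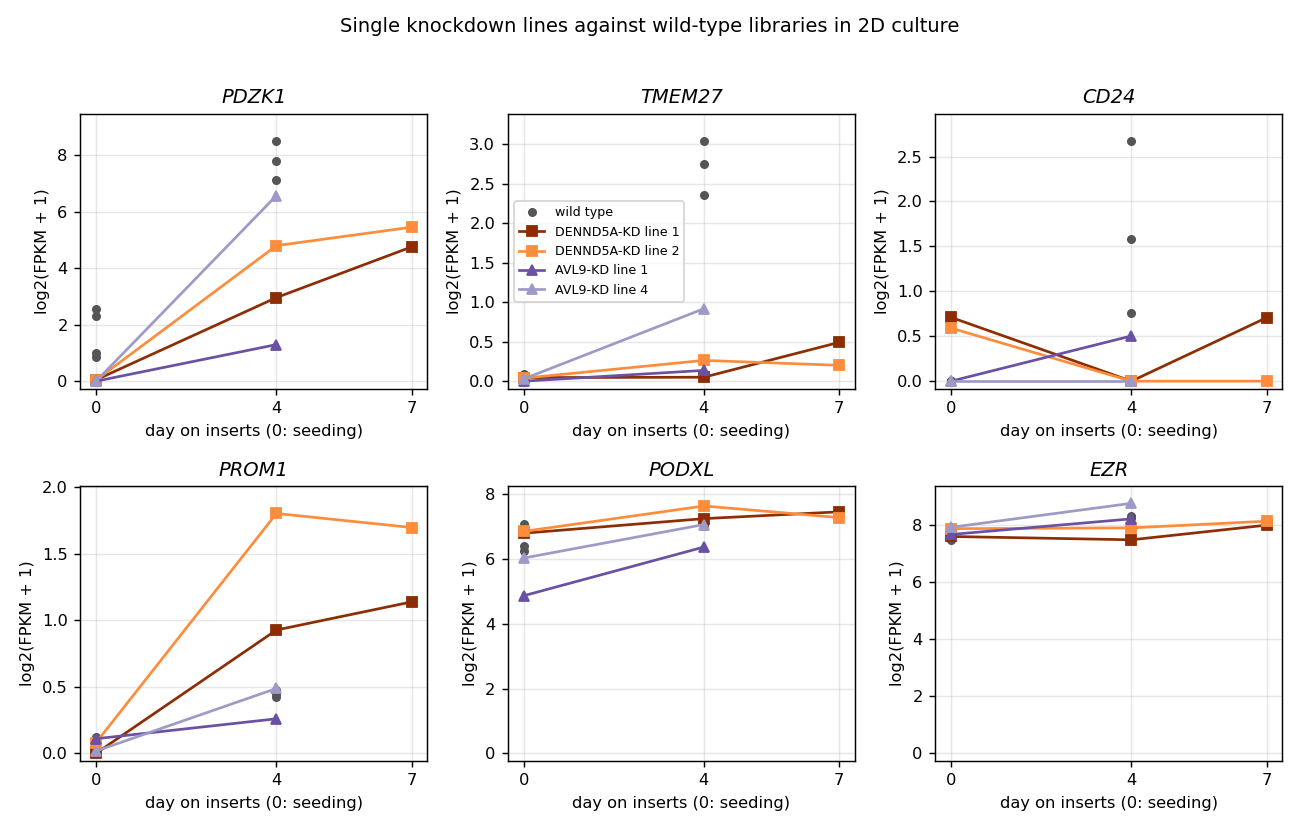
Expression of 6 genes as log2(FPKM + 1) against day on inserts, with day 0 the cells at seeding; grey points are wild-type libraries and each coloured line joins the libraries of a knockdown line. PDZK1 in AVL9-KD line 4 reached 94.3 FPKM against 1.46 in line 1, and TMEM27 stayed below 1 FPKM in every knockdown library.

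The change of the knockdown difference between seeding and 2D day 4 (interaction) is given as a description, because it contains the wild-type change from day 0 that was known when the genes were chosen. For TMEM27 it was −2.57 ± 0.38 in DENND5A-KD and −2.17 ± 0.38 in AVL9-KD cells, beside a wild-type rise of 2.68 ± 0.23 over the same days, and TMEM27 stayed below 1 FPKM in every knockdown library. TMEM27 was the 1 gene of the 8 past the threshold in each, where 1.83% and 1.22% of all genes tested were called. That is not counted as support, since the known wild-type rise is part of both values. PDZK1, already lower in the knockdown lines at day 0, had values of −2.29 ± 1.26 and −2.20 ± 1.26. The latter moved to −4.83 without AVL9-KD line 4 at 2D day 4 and to 0.44 without line 1, and to 0.20 with a pseudocount of 0.1. PROM1 had a value of 0.94 ± 0.28 in DENND5A-KD cells, short of the threshold in the fit of all libraries. It was past the threshold with the line number as a block (0.94), with quantile normalization (1.01) and with median-ratio scaling (0.95). Without DENND5A-KD line 1 at 2D day 4 the PROM1 value moved to 1.38.

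Within single lines, PDZK1 still increased on inserts. DENND5A-KD lines 1 and 2 had 199-fold and 963-fold more PDZK1 at 2D day 4 than at day 0, starting from values of 0.034 and 0.028 FPKM, at which a ratio is imprecise. TMEM27 in the same lines was 1.11-fold and 7.53-fold its day 0 value, all below 1 FPKM. In AVL9-KD cells TMEM27 went from 0.020 to 0.889 FPKM in line 4, 45.5-fold, and from a value listed at 0 to 0.099 in line 1. The PDZK1 to SLC9A3R1 ratio at 2D day 4 was 0.110 and 0.378 in the DENND5A-KD lines and 0.0210 and 1.36 in the AVL9-KD lines, below the 2.06 to 5.38 of wild type.

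Set against each other at 2D day 4 with no wild-type library in the contrast, the knockdowns differed in EZR and PROM1. EZR was lower in DENND5A-KD (176 and 235 FPKM) than in AVL9-KD cells (293 and 428 FPKM) by −0.80 ± 0.17 (adjusted p = 0.00378). PROM1, which passed the filter partly through DENND5A-KD libraries, was higher (0.900 and 2.49 against 0.197 and 0.402 FPKM) by 0.99 ± 0.22 (adjusted p = 0.00458). These were 2 of the 8 genes, where 22.4% of all genes tested were called (2640 genes, and 349 without DENND5A-KD line 1). With the 4 libraries fitted alone neither passed (adjusted p = 0.208 and 0.203; 0.00096 to 0.208 and 0.00178 to 0.203 over their alternatives). EZR also lost its call without DENND5A-KD line 1 (adjusted p = 0.109) or AVL9-KD line 4 (adjusted p = 0.0648), and PROM1 without DENND5A-KD line 2 (adjusted p = 0.0676). The median of all genes lay at −0.24 here and at −0.02 after quantile normalization, and both calls held under both scalings. PODXL, higher in DENND5A-KD by 0.73 ± 0.29 (adjusted p = 0.0737), gained a call with quantile normalization (1.02, adjusted p = 0.0366), with median-ratio scaling (1.01, adjusted p = 0.0307) and without AVL9-KD line 4 (1.07, adjusted p = 0.0399), and its adjusted p reached 0.448 over its other alternatives. PDZK1 differed by −0.05 ± 1.00 (adjusted p = 0.98) and moved to −2.69 without AVL9-KD line 1 (adjusted p = 0.0131) and to 2.58 without line 4 (adjusted p = 0.0205), so its direction was set by which AVL9-KD line was used.

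From 2D day 4 to day 7 the DENND5A-KD lines showed no call among the 8 genes in limma, and 1 had an unadjusted p under 0.05. That gene was EZR, at 252 and 277 FPKM against 176 and 235 (0.37 ± 0.17, adjusted p = 0.753), and 0.051% of all genes tested were called. PDZK1 read 26.1 and 42.9 FPKM at day 7, which was 3.84-fold and 1.59-fold its day 4 value in lines 1 and 2. TMEM27 read 0.406 and 0.149, higher in line 1 and lower in line 2 than at day 4. PROM1 stayed high at 1.20 and 2.24. MUC1 read 97.0 and 125, PODXL 175 and 154, SLC9A3R1 65.6 and 73.0, and CD24 0.633 and 0. Both PDZK1 and TMEM27 were at day 7 still below the lowest wild-type monolayer library of day 4 or day 11.

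To see how the rest of the apical machinery moved, a list of 56 other apical genes was used, of which 48 had a row and 32 passed the filter. In wild type more of those tested were higher than lower after culture, and radixin was lower in cysts from day 3 and in monolayers. Of the 32, 18 were higher and 4 lower at 3D day 3, 15 and 5 at day 5, 16 and 6 at day 8, 18 and 2 at 2D day 4, and 18 and 1 at 2D day 11. The shares of all genes called in these comparisons were 51%, 57.6%, 62.8%, 59.9% and 55.9%. Of the genes called among all those tested, 54.8%, 45.8%, 39.4%, 50.6% and 57.6% were higher. The median difference of the list was 0.53, 0.51, 0.57, 0.45 and 0.44, beside 0.05, −0.04, −0.13, 0.00 and 0.06 for all genes tested. The comparisons share the day 0 libraries. Since the list was written with earlier results of these data known, its counts and differences against day 0 are a description. An adjusted p given with them below is not independent of that knowledge. List genes under 1 FPKM at day 0 could also pass the filter only through other groups, which favours higher over lower. Without the 5 libraries that stood apart, 12, 13, 10, 13 and 17 genes were higher and 4, 4, 6, 2 and 0 lower.

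At 24 h, 1 of the 32 was called where 1.19% of all genes were (140 genes, 17 and 23 without 24 h replicate 3 or 2, and 77 without day 0 replicate 3): CA4, a lipid-anchored carbonic anhydrase, at 2.94 against 0.260 FPKM (1.65, adjusted p = 1.44e-05), named after its value was seen.

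PDZK1IP1, a small membrane protein that binds PDZK1, went from 82.4 FPKM on average to 303 at 3D day 8 (1.86 ± 0.18) and 307 at 2D day 4 (1.88 ± 0.16). SYTL2, a RAB27 effector in vesicle delivery to the lumen, rose from 4.46 to 18.0 FPKM (1.85 ± 0.23) and 23.9 (2.24 ± 0.20). PDZD3, a scaffold of the same family as NHERF1, was higher at 3D day 3 (2.24 ± 0.28), as was ANKS4B, an adaptor at microvillus tips (1.36 ± 0.16). CLIC4, of the chloride intracellular channel family, was higher at 2D day 11 (1.61 ± 0.14). In each of these calls the groups did not overlap.

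The other ERM proteins moved unlike ezrin. Radixin (RDX) fell from 58.8 FPKM at day 0 to 23.5 at 3D day 8 (−1.29 ± 0.10) and 42.1 at 2D day 4 (−0.47 ± 0.09). Moesin (MSN) fell from 95.5 to 31.5 (−1.59 ± 0.20) and 61.2 (−0.65 ± 0.18). At 2D day 11 its difference of −0.39 ± 0.18 was not called in limma (adjusted p = 0.068). Ezrin over the same groups read 206, 219 and 309 FPKM. The recycling motor MYO5B was also lower in cysts at day 8 (11.5 against 24.6 FPKM, −1.03 ± 0.14).

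In the comparison of cysts with monolayers, 6 of the 32 list genes were higher in cysts and 13 lower, 19 in all, beside the 56.9% called among all genes. The list's median was −0.11 beside −0.08 for all genes. VAMP8, a vesicle SNARE (0.64 ± 0.13), the mucin MUC20 (0.50 ± 0.11) and ANKS4B (0.48 ± 0.11) had the smallest adjusted p of the higher genes with at least 5 FPKM in cysts. MYO5B (13.3 against 28.9 FPKM, −1.08 ± 0.09), the class I myosin MYO1D (34.1 against 86.3 FPKM, −1.34 ± 0.12) and RDX (−0.68 ± 0.07) had the smallest of the lower ones. Larger differences outside that choice, named after their values were seen, were those of CA4 (2.83 against 0.679 FPKM, 1.13 ± 0.12) and PDZD3 (4.79 against 1.79 FPKM, 1.08 ± 0.19), and MSN was lower by −0.81 ± 0.13. Between 2D day 11 and day 4, 0 of the 32 passed in limma and 3 had an unadjusted p under 0.05.

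**Figure D4:**
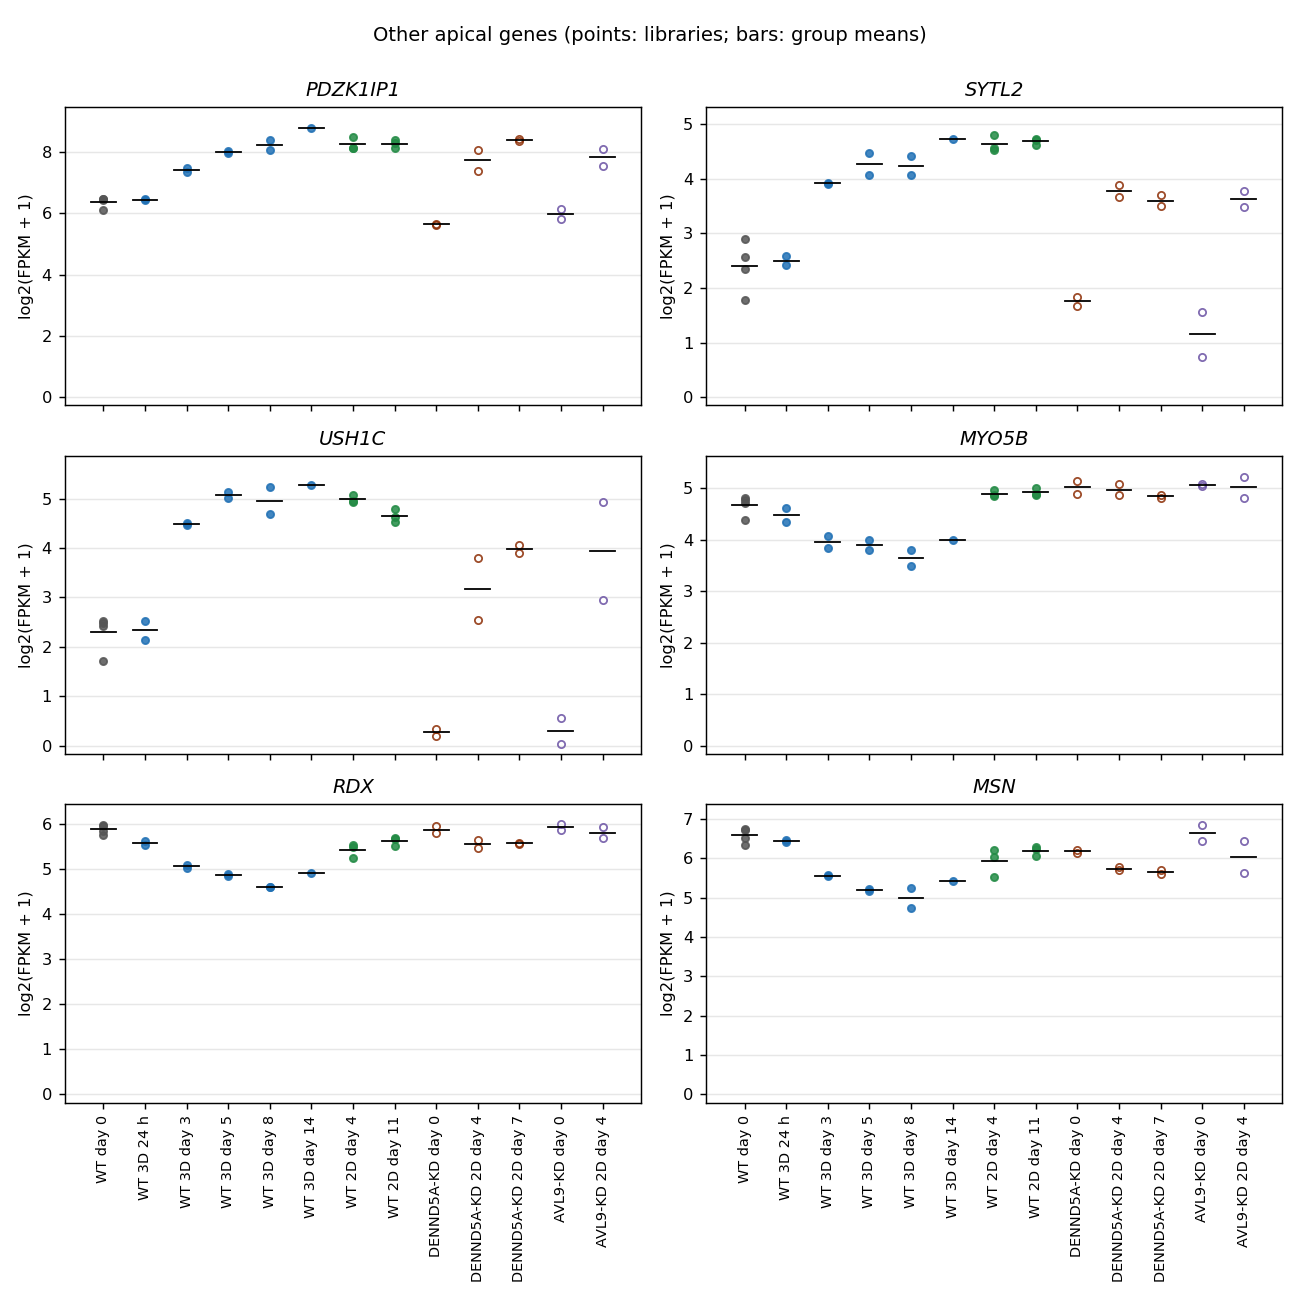
Expression of 6 other apical genes in all 29 libraries as log2(FPKM + 1), by group; points are libraries, bars are group means, and open points are knockdown libraries. SYTL2 and USH1C are lower in knockdown than in wild-type cells at day 0 on average, and RDX, MSN and MYO5B have their lowest group means in cysts.

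In the knockdowns the list split in both directions. At day 0, 3 list genes were higher and 4 lower in DENND5A-KD cells, and 2 were higher and 4 lower in AVL9-KD cells, where 5.52% and 18% of all genes were called. ANKS4B was lower in both (−0.97 ± 0.16, adjusted p = 0.000608, and −0.47 ± 0.16, adjusted p = 0.0469), and NF2, the ERM-related merlin, was higher in both (0.45 ± 0.13, adjusted p = 0.044, and 0.44 ± 0.13, adjusted p = 0.0245). DENND5A-KD cells also had less PDZK1IP1 (49.9 and 48.3 FPKM against 67.9 to 87.9, −0.73 ± 0.18) and EPS8, an actin regulator of microvilli (−0.58 ± 0.17), and more of the aminopeptidase ENPEP (1.32 ± 0.32). AVL9-KD cells had less MUC20 (−0.96 ± 0.16) and more of the peptidase DPP4 (5.41 against 0.417 FPKM, 2.03 ± 0.22, adjusted p = 3.54e-06). DPP4 was higher in DENND5A-KD cells as well, at 4.20 and 4.64 FPKM (1.94 ± 0.22, adjusted p = 8.48e-06), named after its value was seen since it is under 5 FPKM.

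At 2D day 4, 3 list genes were higher and 6 lower in DENND5A-KD cells, with medians of −0.11 for the list and −0.03 for all genes, and 4 were higher and 4 lower in AVL9-KD cells, with medians of −0.03 and 0.19. The shares of all genes called were 11.3% and 21%. SYTL2 was lower in both without overlap, at 11.7 and 13.8 (−0.86 ± 0.24, adjusted p = 0.0253) and 12.6 and 10.1 FPKM (−1.01 ± 0.24, adjusted p = 0.00609) against 22.0 to 27.0. USH1C, a scaffold of the microvillus tip, was lower in DENND5A-KD cells (4.83 and 12.9 against 29.7 to 32.8 FPKM, −1.82 ± 0.40, adjusted p = 0.00468), and MUC20 higher (0.62 ± 0.17). AVL9-KD cells had more RDX (0.39 ± 0.11) and RAB11FIP5, a RAB11 effector (0.43 ± 0.15). Both were measured beside a median of all genes of 0.19. Fitted on the groups alone, 2 list genes passed for DENND5A-KD and 0 for AVL9-KD.

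Over the 13 group means, the 8 genes were not a single pattern. Of the 28 pairs, 2 had a Pearson r over 0.8, PDZK1 with TMEM27 (0.91) and TMEM27 with CD24 (0.90), and 8 had an r below 0, with a median of 0.29. SLC9A3R1 ran against CD24 (−0.76) and TMEM27 (−0.66), and PODXL against CD24 (−0.53). MUC1 and EZR had an r of 0.71. These are descriptions over group means, and groups share culture form and genotype.

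**Figure D5:**
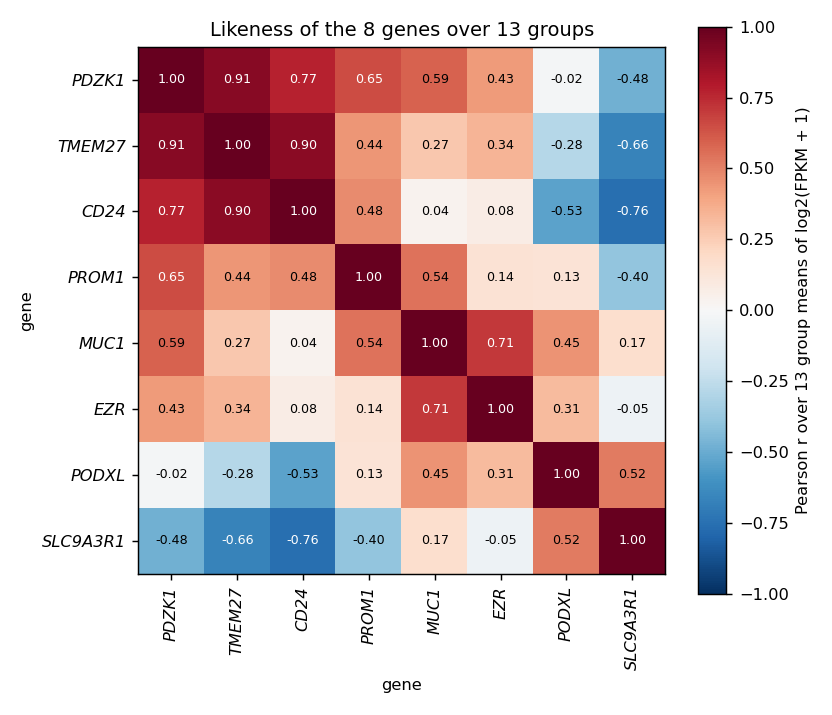
Pearson r between each pair of the 8 genes over the 13 group means of log2(FPKM + 1), from blue (−1) to red (1). PDZK1, TMEM27 and CD24 form the red corner at the upper left, and SLC9A3R1 is blue against them.

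Among 8076 genes (8077 for PROM1) with a symbol and a mean of 5 FPKM or more in some group, those most like each of the 8 over the same 13 means were then listed. PDZK1 was most like the tetraspanin TSPAN1 (r = 0.99), the sodium pump regulator FXYD2 (0.98) and the sterol hydroxylase CYP27A1 (0.98). TSPAN1 read 3.78 FPKM at day 0, 66.7 at 2D day 4, and 10.8 and 26.0 on average in DENND5A-KD and AVL9-KD cells. TMEM27 was most like GABRA3 (0.96), MFAP3L (0.96) and MTSS1 (0.95), and CD24 most like the peroxiredoxin PRDX4 (0.97), SNX2 (0.95) and MCEE (0.95). PROM1 was most like TP53I11 (0.92), which read 0.341 FPKM in wild-type and 6.19 in DENND5A-KD monolayers of day 4, then RIPPLY1 (0.91) and EFNA4 (0.88). MUC1 was most like NFE2L1 (0.97) and VPS8 (0.97). PODXL was most like TRIM8 (0.95), SOX4 (0.95) and SORBS2 (0.93), EZR most like WBP2, SLC35E3 and OAT (0.91 each), and SLC9A3R1 most like ANXA11 (0.95), HGS (0.93) and DCUN1D3 (0.92).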

How the data were processed

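Per the labels, mRNA libraries of MDCKII cells kept strand. Deposited by the authors were FPKM of 24223 Ensembl dog genes for each library. The submitters' processing notes name HISAT2 2.1.0, Cufflinks 2.2.1, canFam3 and CanFam3.1 without a role. FPKM hold no absolute depth, and relative depth came from the spacing of low values. No 2 libraries were identical.

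Genes reaching 1 FPKM in 2 or more libraries, 11774 in number, were fitted as log2(FPKM + 1) with limma 3.58.1 (trend, R 4.3.3), using all 29 libraries and a mean for each group. Tests were 2-sided, with Benjamini-Hochberg adjustment over all genes tested, and the fit was tested on simulated data. The 8 genes, the list of other apical genes and the marker lists were chosen with earlier results of these data known. From that list, each comparison names at most 3 called genes per direction, by smallest adjusted p, that average 5 FPKM or more in the higher group. For each of the 8 genes, the 3 most similar by Pearson r are named. Some genes that met these rules are not reported here.

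Other settings tried were 2 scalings (quantile and median-ratio), a smaller pseudocount (0.1), testing without a filter, a block on replicate or line number, separate fits per comparison, a batch term for the 5 libraries that stood apart or their omission, and leaving out single libraries. Knockdown lines of 1 number pair as the same cell line; deviations from group means of such libraries correlated with r of 0.36 (AVL9-KD) and 0.010 to 0.097 (DENND5A-KD). Figures were drawn with matplotlib 3.10.9 in Python 3.11.15. Sequences and coordinates were not used here.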

Additional observations from a re-analysis of the deposited data

Results flagged for a closer look

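The knockdown difference of TMEM27 was not the same at seeding and at 2D day 4. For DENND5A-KD the change between the days was −2.57 ± 0.38 (SE), and for AVL9-KD −2.17 ± 0.38 (SE). Both contain the wild-type rise of TMEM27 (2.68 ± 0.23), known when the gene was chosen, and are given as a description, with no test. All 4 knockdown libraries of day 4 lay below all 3 wild-type libraries, while at day 0 the groups overlapped near 0.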

How the results depend on the processing

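Of 648 single-gene differences recomputed under other settings, 624 kept their side of the threshold, 11 lost and 13 gained a call, and 25 changed sign. With 1 library left out, 541 of 560 kept their side, 11 lost and 8 gained a call, and 49 changed sign. None of the values that changed sign was called in the fit of all libraries, and 1 was called after it: PDZK1 between the knockdowns at 2D day 4 became 2.58 without AVL9-KD line 4, and −2.69 without line 1. Fitting the groups of a comparison alone left 1 gene of the 8 called for DENND5A-KD at 2D day 4 (4 in the fit of all libraries), 0 for AVL9-KD at 2D day 4 (2), 0 for AVL9-KD at day 0 (1), 0 between the knockdowns (2) and 1, CD24, for DENND5A-KD at day 0 (0). Of the other apical genes it left 2 for DENND5A-KD (9) and 0 for AVL9-KD (8) at 2D day 4, and 2 for AVL9-KD at day 0 (6). Such fits hold fewer libraries.

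With quantile normalization or median-ratio scaling, 2 of the 8 genes were called for AVL9-KD at day 0 (SLC9A3R1 added), 2 in the DENND5A-KD interaction (PROM1 added) and 2 list genes at 24 h (1), and PODXL was added between the knockdowns. Median-ratio scaling called 11 list genes for AVL9-KD at day 0 (6). A pseudocount of 0.1 called 1 of the 8 genes for DENND5A-KD (0) and 2 for AVL9-KD (1) at day 0, and 2 in the DENND5A-KD interaction (1). The replicate block also called 2 there, adding PROM1, and changed no other call of the 8 genes. Libraries of wild type that share a number deviated with r of −0.16 to 0.56, and the labels tie them by number only. Pairs among the first replicates that stood apart, which also share TIMM13 at 0, gave r of 0.40 to 0.56.

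Leaving out 1 library gave 1 to 2 list genes at 24 h, 3 to 7 for DENND5A-KD at day 0 and 2 to 9 for DENND5A-KD at 2D day 4. For the 8 genes it gave 0 to 1 for AVL9-KD at day 0, 2 to 5 for DENND5A-KD and 1 to 3 for AVL9-KD at 2D day 4, 1 to 3 between the knockdowns, and 1 to 2 in each interaction (PDZK1 or PODXL added for AVL9-KD, PROM1 for DENND5A-KD). Counts over all genes ran from 45 to 419 and 59 to 266 in the DENND5A-KD and AVL9-KD interactions and from 0 to 213 for DENND5A-KD day 7 against day 4. Where an arm kept 1 library, it was assumed to vary like the other groups.

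Over all genes, quantile normalization moved the split of higher and lower calls. It went from 2602 and 4094 to 3573 and 3605 for cysts against monolayers, from 2199 and 275 to 1100 and 973 for AVL9-KD at 2D day 4, from 1578 and 540 to 899 and 956 for AVL9-KD at day 0, and from 386 and 2254 to 992 and 951 between the knockdowns. For cysts of day 8 against day 0 it went from 2911 and 4478 to 3632 and 3913, and smaller sets shifted too: 74 and 66 to 84 and 136 at 24 h, 224 and 21 to 254 and 121 for 2D day 11 against day 4, 116 and 28 to 110 and 50 in the AVL9-KD interaction. DENND5A-KD at 2D day 4 rose from 1334 to 2069 genes and its interaction from 215 to 459, and median-ratio scaling gave 314 genes at 24 h, 462 in that interaction and 1543 between the knockdowns. The batch term gave 385 genes for 2D day 11 against day 4 (245). The median of all genes at 3D day 8 went from −0.13 to −0.02, and that of AVL9-KD at day 0 from 0.11 to −0.01. Fitted alone, the groups gave 97 genes for DENND5A-KD at 2D day 4 (1334), 25 for AVL9-KD (2474), 342 for AVL9-KD at day 0 (2118), 400 for DENND5A-KD at day 0 (650) and 0 between the knockdowns (2640). The interactions fell to 74 (215) and 15 (144) genes, 24 h to 16 (140) and 2D day 11 against day 4 to 2 (245). The replicate block raised them to 436, 270, 304 and 520 genes. For DENND5A-KD day 7 against day 4 the count was 0 to 127 over these settings (6), and 1 with line as a fixed term. Absolute depth is unknown, and it limits most the genes at or near 0 FPKM at day 0, CD24, TMEM27 and PROM1.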

Other observations

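The AVL9-KD lines differed in more than PDZK1 at 2D day 4. TMEM27 read 0.099 FPKM in line 1 and 0.889 in line 4, and USH1C 6.75 and 29.6, so line 1 was the lower in both. Other genes went the opposite way, such as MUC1 (131 in line 1 and 90.6 in line 4) and PDZK1IP1 (272 and 188). AVL9 itself read 6.35 in line 1 and 3.89 in line 4. With 1 library per line and day, no spread within a line was measured.

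DENND5A-KD monolayers of day 7 read 14.0 and 15.7 FPKM for USH1C, against 4.83 and 12.9 at day 4. No wild-type library of day 7 was analysed here.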
